A study of Mus musculus with 43 samples.

Results

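White adipose tissue (WAT) of Irs1 knockout mice fed ad libitum, the group labelled KOAL, was set directly against WAT of wild-type mice on dietary restriction, the group labelled WTDR. All entries of the deposited expression table with an FPKM of at least 1 in either group entered the comparison, which left 15535 of 42349 entries. FPKM is the number of sequenced fragments scaled to transcript length and to library size. KOAL mice lacked insulin receptor substrate 1 in every tissue (Irs1-/-) and ate standard chow freely, whereas WTDR mice carried intact Irs1 and had been given 30% less chow than ad libitum controls for 12 months, from 10 weeks of age. All mice were females of 15 months. The fat was taken from the inguinal depot. Restricted mice were fed once a day in the late afternoon. KOAL and WTDR therefore differed in genotype, in the amount eaten and in the time of eating, and these cannot be told apart in a direct comparison. The study holds both groups because each state, loss of IRS1 and dietary restriction, is linked to longer life in mice, and the comparison asks how far their fat transcriptomes lie from each other. The 2 other WAT groups, ad libitum wild types (WTAL) and restricted knockouts (KODR), are given as reference values only.

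IRS1 is an adaptor protein that couples the activated insulin and IGF-1 receptors to phosphatidylinositol 3-kinase and AKT. In adipocytes this pathway promotes glucose uptake, fatty acid synthesis and storage of triglyceride, and restrains lipolysis. Dietary restriction shrinks fat stores and is known to raise the expression of lipogenic enzymes in white fat, where daily feeding alternates with long fasts. Subcutaneous inguinal fat also holds vessels, nerves, a lymph node and, in females, the ducts of the mammary gland.

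The table holds 1 FPKM per group with its 95% confidence interval, not a value per mouse, so every value below is the authors' estimate for a group and its interval is given in parentheses. The labels list 3 KOAL and 2 WTDR libraries of WAT, while the design text counts 3 WTDR mice. Library depth is unknown. The 10 entries with the highest FPKM took up 22.0% of all FPKM in KOAL, 30.3% in WTDR, 18.3% in WTAL and 20.6% in KODR. Intervals were wide. The median SD derived from them was 36.4% of the FPKM in KOAL and 65.1% in WTDR, and the lower bound was 0 for 4299 and 12372 of the 15535 entries. At the FPKM minimum, Zfp54 was just inside with 1.00027 in KOAL, and Gm3604 was just outside with 0.99964 in WTDR.

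Irs1 itself did not separate the groups. Its FPKM was 5.37 (2.94 to 7.80) in the group labelled KOAL and 6.56 (2.33 to 10.8) in WTDR, a log2 difference of -0.29 ± 0.57 that was not called. It was 2.47 in WTAL and 2.58 in KODR. The transcript of the targeted gene thus gave no check of the labels in this tissue, and all directions below are those of the labelled groups. Which part of Irs1 the knockout allele removes is not given in the sources used here.

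Of the 15535 entries, 15273 had an FPKM above 0 in both groups and were tested. A two-sided Wald test on the log2 ratio of KOAL to WTDR, with Benjamini-Hochberg adjustment over all 15273, called 98 entries at a false discovery rate of 10%, or 0.642%. Of these, 79 (0.517%) were higher and 19 (0.124%) lower in KOAL. At an unadjusted p under 0.05 there were 538 of the 15273 entries, 362 of them higher and 176 lower. That share is smaller than 0.05 itself, so counts at this limit in the lists below are description only. Among all tested entries 8770 were higher and 6503 lower in KOAL, with a median log2 difference of 0.14. A list whose median lies near 0.14 thus moved like the rest of the table. The FPKM minimum was met in KOAL alone by 1421 of the tested entries and in WTDR alone by 306, which fixed their direction. Among the 13546 with at least 1 in both groups 7349 were higher, with a median of 0.07. The count depends strongly on how the intervals are read. With the SD divided by the square root of the number of libraries it was 530 (3.47%), of which 357 (2.34%) were higher and 173 (1.13%) lower, and against a t distribution with 3 degrees of freedom it was 1. The calls thus rest on the width given to the intervals, and on errors that are normal on the log scale. Nearest to the FDR limit, D430019H16Rik was inside with a log2 difference of 2.73 ± 0.80 (SE) and Dock8 outside with 1.89 ± 0.55. Log2 differences are given below as value ± SE. Of the 79 higher entries, 66 were protein coding and 6 were immunoglobulin segments. Of the 19 lower ones only 6 were protein coding, and 11 were small, ribosomal or mitochondrial RNAs.

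**Figure D1:**
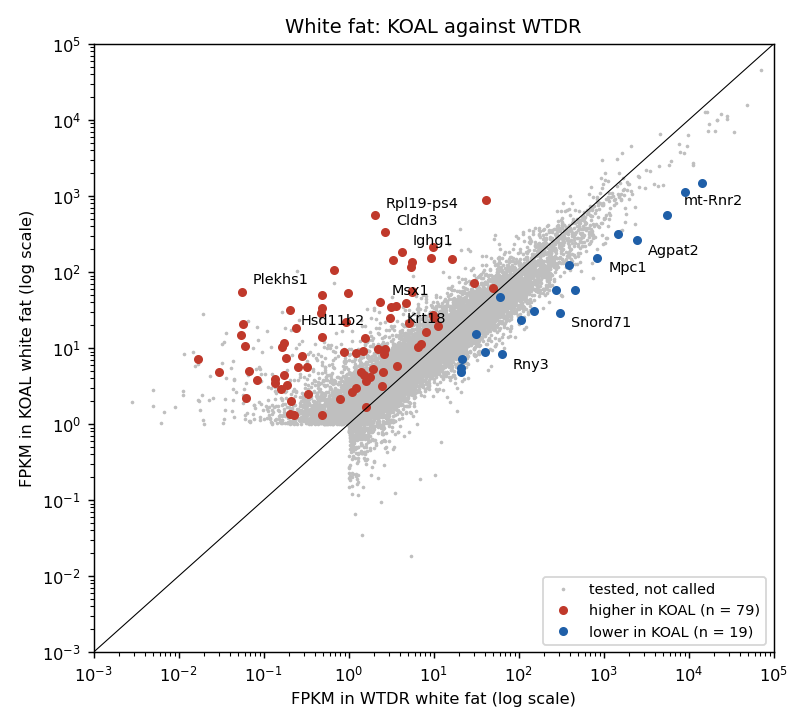
Authors' FPKM of every tested entry in WTDR (x axis) against KOAL (y axis), both on log scales, with the line of equality. Red points are the 79 entries called higher and blue points the 19 called lower in KOAL. The red points lie mostly at a WTDR FPKM under 10, whereas the blue ones reach 14210.5.

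Among protein-coding genes with an FPKM above 1 in both groups, the largest called difference was that of Cldn3, and other epithelial genes were called with it. Cldn3 encodes claudin 3, a tight junction protein of simple epithelia (GRCm38, chromosome 5, 134986214 to 134987472). Its FPKM was 337 (194 to 479) in KOAL and 2.68 (0 to 6.32) in WTDR, with 2.64 (0 to 5.49) in WTAL and 15.3 (0 to 33.9) in KODR. KOAL thus lay above all 3 other groups without overlap of the intervals, and the log2 difference from WTDR was 6.97 ± 1.03. Krt18 and Krt8 encode the keratin pair of simple epithelial cells and were read at lower levels. Krt18 had an FPKM of 35.3 (9.60 to 60.9) in KOAL against 3.61 (1.05 to 6.17) in WTDR, and Krt8 had 24.9 (5.50 to 44.2) against 3.04 (0.884 to 5.20). Both keratins were high in KODR as well (34.2 and 17.8) and low in WTAL (2.54 and 2.57), so both groups labelled as knockout were high. Epcam, the epithelial cell adhesion molecule, had 10.8 (2.88 to 18.6) in KOAL and 0.0599 (0 to 0.204) in WTDR. Ltf, the secreted iron-binding protein lactotransferrin, had 14.6 (6.07 to 23.2) and 0.0538 (0 to 0.193), and again 11.1 in KODR.

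These 5 genes were the called members of a list of 30 mammary and other epithelial markers. Only 15 of the 30 were tested, and 8 of these, Epcam and Ltf among them, met the FPKM minimum in KOAL alone, which fixed their direction. Trp63 (0.445 against 1.13) met it in WTDR alone. The 6 with at least 1 FPKM in both groups were all higher in KOAL, 3 of them called, with a median log2 difference of 2.45 beside 0.07 for all entries tested at that level. Over all 15 the median was 3.44. The summed FPKM of the list was 643 in KOAL, 58.6 in WTDR, 42.5 in WTAL and 225 in KODR. Cldn4 and Esrp1 were listed at 0 in WTDR and had 16.9 and 3.75 in KOAL. The milk protein genes Wap and Csn1s1 were listed at 0 in both groups, and Csn2, Csn3 and Lalba were below 0.2 in both. Basal and myoepithelial keratins stayed below 1 (Krt5 0.0990, Krt14 0.330 and Krt17 0.141 in KOAL). In bulk tissue, more cells of a type and more RNA per cell cannot be told apart.

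Cldn3 was the called protein-coding gene with the largest difference above 1 FPKM in both groups, and Agpat2, described further on, the one with the largest difference in the other direction. Their promoters, 250 bases before to 50 after the annotated start, are shown to set these 2 genes side by side. The sequences come from RefSeq on GRCm38.p6, 5′ to 3′ on the gene's strand, and capitals mark matches to the GC box GGGCGG on either strand, which was the only one of 6 searched motifs present in either.
Cldn3, chr5:134985964-134986263, plus strand: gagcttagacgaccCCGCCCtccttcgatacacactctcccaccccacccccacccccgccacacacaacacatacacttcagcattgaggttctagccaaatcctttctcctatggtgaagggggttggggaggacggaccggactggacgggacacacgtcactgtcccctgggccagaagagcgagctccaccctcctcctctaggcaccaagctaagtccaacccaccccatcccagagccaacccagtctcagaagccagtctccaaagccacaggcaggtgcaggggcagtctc
Agpat2, chr2:26604368-26604667, minus strand: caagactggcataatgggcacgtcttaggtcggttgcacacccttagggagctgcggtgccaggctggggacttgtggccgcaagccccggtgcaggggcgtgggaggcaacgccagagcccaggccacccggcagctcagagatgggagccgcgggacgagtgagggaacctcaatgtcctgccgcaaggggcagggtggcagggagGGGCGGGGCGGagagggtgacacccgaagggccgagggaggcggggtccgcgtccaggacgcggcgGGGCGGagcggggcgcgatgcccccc
The Cldn3 promoter had 1 match and the Agpat2 promoter 3, of which a pair overlap by 1 base. RefSeq promoters were held for 11 of the 13 called list genes. A GC box was found in 6 of the 11, against 35.7% of 32851 promoters, and an NF-Y box (CCAAT) in 4 of 11, against 37.4%. An E-box (CACGTG) and a TATA box (TATAAA) occurred in 2 promoters each, against 7.15% and 13.6%, and the muscle E-box (CAGCTG) in 1, against 16.3%. The sterol regulatory element (TCACNCCAC) was in 0 of 11, against 1.24%. With 11 promoters these are counts only.

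Genes known from the uterus and female reproductive tract were also among those called higher in KOAL. A list of 50 such genes was drawn up after the values had been seen, so its counts describe and test nothing. It shares Ltf, Muc1 and Pgr with the epithelial list. Of 36 tested members 32 were higher in KOAL, and 13 were among the called entries, but 16 of the 36 had met the FPKM minimum in KOAL alone. Hsd11b2, which inactivates glucocorticoids, had an FPKM of 31.4 (13.1 to 49.8) in KOAL and 0.202 (0 to 0.416) in WTDR, a log2 difference of 7.28 ± 0.87. It was 0.693 in WTAL and 3.58 in KODR, so KOAL stood apart from all 3 other groups. The homeobox gene Msx1 had 40.2 (12.4 to 67.9) in KOAL and 2.37 (0 to 5.77) in WTDR. The zinc finger transcription factor gene Osr2 had 34.4 (15.3 to 53.5) and 3.12 (0 to 6.68), and the bHLH factor gene Hand2 13.6 (8.18 to 19.1) and 1.56 (0.0726 to 3.04). Hoxa10, a homeobox gene of the posterior cluster, was already read in every group, at 21.2 (14.2 to 28.2) in KOAL, 5.09 (3.68 to 6.50) in WTDR, 6.50 in WTAL and 2.87 in KODR. Its intervals were narrow, and the log2 difference from WTDR was 2.06 ± 0.31.

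Of the receptor genes on this list, Il17rb and Rxfp1 were called. Il17rb, the receptor for interleukin 25, had 14.0 in KOAL, 0.484 in WTDR, 0.967 in WTAL and 0.744 in KODR. Rxfp1, the relaxin receptor, had 11.5, 0.176, 0.0453 and 0.325. The progesterone receptor gene Pgr was not called (3.76 against 0.554, log2 2.76 ± 1.26), and nor was the oestrogen receptor gene Esr1 (14.6 against 10.3). Oxtr, the oxytocin receptor, lay in the opposite direction, at 18.1 in KOAL and 115 in WTDR, without being called. The list members Prss28, Prss29, Pax2, Pax8 and Msx2 were listed at 0 in WTDR and in WTAL. In KOAL they had 3.08, 15.8, 3.93, 13.0 and 1.34, and in KODR between 0 and 1.94. The summed FPKM of the list was 1096 in KOAL and 921 in WTDR, to which Gpx3, a plasma glutathione peroxidase, added 327 and 693. These genes and the epithelial markers above were both higher in KOAL than in WTDR. In KODR the epithelial genes were divided. Krt18, Krt8 and Ltf, which is on both lists, were near their KOAL level. Cldn3 (15.3 in KODR against 337 in KOAL) and Cldn4 (2.12 against 16.9) were far under it, as were Hsd11b2, Hoxa10, Il17rb and Rxfp1. The part that such cells have in the other differences was not tested.

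**Figure D2:**
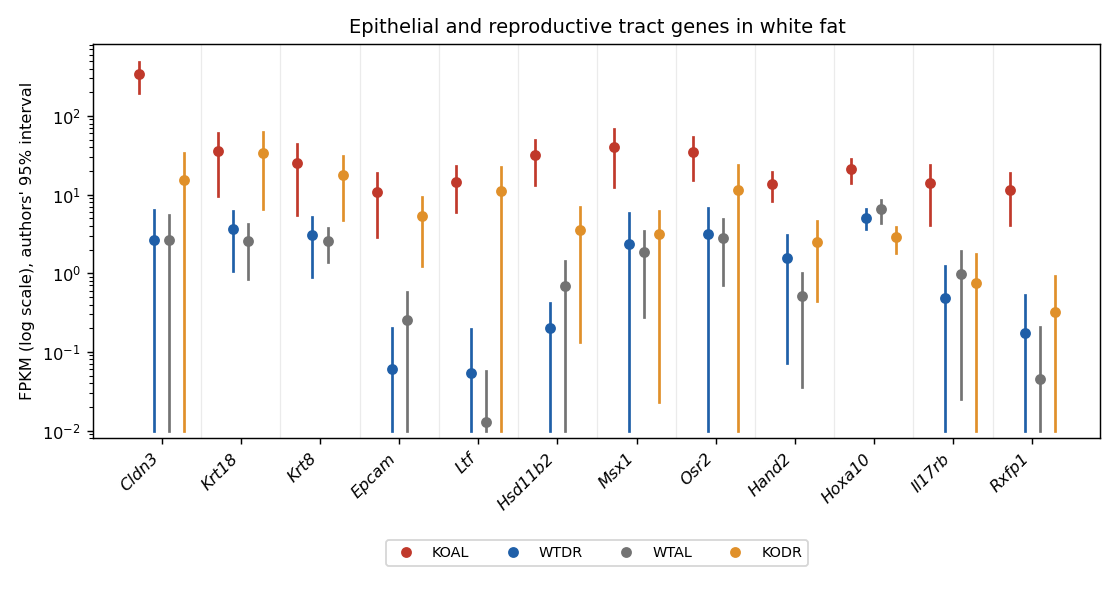
Authors' FPKM (points) and 95% intervals (bars) of 12 called genes in the 4 WAT groups, on a log axis that cuts bounds of 0 at 0.01. KOAL is above WTDR and WTAL for each gene without overlap of the bars, while the bars of KODR and KOAL overlap for Krt18, Krt8, Epcam, Ltf and Osr2.

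A wider set of entries was listed at 0 in WTDR. Of the 262 entries that could not be tested, 214 were at 0 in WTDR and 48 at 0 in KOAL. With an FPKM of at least 5 in the other group there were 101, of which 72 were at 0 in WTDR. The 5 highest were short immunoglobulin J segments and small RNAs, namely Ighj4 (809.7 in KOAL), Ighj1 (329.8) and Gm24270 (149) at 0 in WTDR, and Ighj2 (699 in WTDR) and Gm25506 (174) at 0 in KOAL. WTAL was also at 0 for 3 of these 5, and at 2006 for Ighj1. Protein-coding entries were found on 1 side only, chosen here after their values were seen. They were 19 in number and all were at 0 in WTDR, led by Prap1 (73.9 in KOAL and 74.3 in KODR) and by S100g, the calcium-binding protein calbindin-D9k (69.4 and 3.73). Cxcl17, Rab25, Sftpd and Foxl2 were among the others, with 16.2, 10.2, 8.89 and 5.27 in KOAL. No fold is given for values listed at 0.

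Further called genes had an FPKM under 1 in WTDR, which holds for 36 of the 98 calls. Some of the 36 were near the FPKM minimum in KOAL as well, such as Celsr1 at 1.32. The 4 highest in KOAL were Igkv4-74, Plekhs1, Slc39a4 and Rnf128. Plekhs1 had 55.3 (28.9 to 81.7) in KOAL and 0.0553 (0 to 0.220) in WTDR. Slc39a4, the zinc importer ZIP4, had 52.5 (26.7 to 78.3) and 0.981 (0 to 2.38), and Rnf128, an E3 ubiquitin ligase, had 50.2 (29.4 to 71.0) and 0.485 (0 to 1.55). WTAL was also under 1 for the last 3 genes, and KODR lay between 1.37 and 5.89. In WTDR 28 of the 36 had a lower bound of 0. A test that takes errors as normal on the log scale is least firm for such low values. When an FPKM of at least 1 was required in both groups, 58 entries were called, 39 of them higher.

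Above 1 FPKM in both groups, the interferon-induced membrane protein gene Ifitm1 had 215 (107 to 322) in KOAL and 9.97 (0 to 22.3) in WTDR (log2 4.43 ± 0.96). Ctla2a, an inhibitor of cathepsin-like proteases, had 115 (40.8 to 190.1) and 5.43 (0 to 11.5). Gm16710 had 137 and 5.57. The pseudogene Rpl19-ps4 had 559.6 (0 to 1659) in KOAL and 2.02 (0 to 6.90) in WTDR, but 781 in WTAL and 353 in KODR, so that WTDR was the group that stood low. Its reads may be shared with Rpl19, and its value is uncertain for that reason. Also called, and picked out here after their values were seen, were Fzd10, Fzd6 and Rspo3. The Wnt receptor gene Fzd10, which reached the FPKM minimum in KOAL alone, had 4.78 against 0.0299, the related receptor gene Fzd6 8.50 against 1.22, and Rspo3, a secreted enhancer of Wnt signalling, 4.79 against 1.40.

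Of 182 tested immunoglobulin entries, 6 were called, all of them higher in KOAL, a share of 3.3% beside 0.642% of all tested entries. These entries were grouped after their values were seen. In all, 140 of the 182 were higher and 42 lower, and of the 14 that could not be tested 12 were at 0 in WTDR and 2 at 0 in KOAL. Some of the 182, the called Igkv4-74 and Igkv6-14 among them, met the FPKM minimum in KOAL alone, which fixed their direction. How many did so was not counted, so the split and the share describe and test nothing. Ighg1, the constant region of IgG1 (chromosome 12, 113325240 to 113330523), had an FPKM of 185 (41.5 to 328) in KOAL, 4.27 (0 to 9.07) in WTDR, 6.47 (1.49 to 11.4) in WTAL and 49.6 (23.2 to 76.1) in KODR. The log2 difference from WTDR was 5.43 ± 0.98. Ighg3 had 151 (48.2 to 253) in KOAL and 9.28 (0 to 19.5) in WTDR. The variable segments Igkv3-2, Igkv4-74, Igkv6-14 and Ighv2-9-1 were called too, at 873, 106, 33.7 and 143 in KOAL against 40.8, 0.682, 0.483 and 3.33 in WTDR. For Igkv3-2 the WTAL value of 1015 was above that of KOAL. Variable segments resemble each other, so reads could be split between them. The more general B cell transcripts were not called. Ighm had 1002 against 399, Igkc 4488 against 2082 and Igj, the joining chain, 44.5 against 19.9. Of 15 tested B cell and antibody markers 14 were higher in KOAL, with a median log2 difference of 1.23 and 0 called, and 5 of the 15 had met the FPKM minimum in KOAL alone. All 17 tested T cell and NK cell markers were higher, with a median of 1.61 and 0 called, although 9 of the 17 were tested only because of their level in KOAL. All 5 of lymph node stroma were higher too, with a median of 2.20, 2 of them tested for the same reason. At an unadjusted p under 0.05 there were 2 B cell markers and 3 T cell markers, and none of lymph node stroma. Ccl21a, the chemokine that draws lymphocytes into nodes, had 26.8 in KOAL, 5.07 in WTDR, 3.10 in WTAL and 16.3 in KODR. The summed FPKM of the B cell list was 5633 in KOAL, 2539 in WTDR, 7268 in WTAL and 3507 in KODR.

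Lower expression in KOAL was led among coding genes by Agpat2, which makes phosphatidic acid on the path to triglyceride (chromosome 2, 26593057 to 26604417). Its FPKM was 261 (87.5 to 435) in KOAL and 2461 (465 to 4457) in WTDR, 9.42 times as much. WTAL had 251 (135 to 366) and KODR 938 (0 to 2664), so the restricted groups held the higher values. The log2 difference was -3.24 ± 0.76. Mpc1, a subunit of the mitochondrial pyruvate carrier, ran the same way, with 153 (68.5 to 238) in KOAL, 846 (353 to 1339) in WTDR, 156 (105 to 208) in WTAL and 348 (46.1 to 649) in KODR (log2 -2.46 ± 0.58). Cdkn1c, the imprinted cyclin-dependent kinase inhibitor p57, had 30.6 (20.3 to 40.8) in KOAL and 153 (69.6 to 236) in WTDR, with 96.4 in WTAL and 60.8 in KODR (log2 -2.32 ± 0.46). Dera, deoxyribose-phosphate aldolase, had 8.79 against 40.6, and the microtubule-binding protein gene Map6 23.3 against 107. Gm10053 had 58.4 in KOAL against 276 in WTDR, and 1 entry known only by a clone name 58.0 against 461.

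The lists of fat metabolism leaned the same way, though almost none of their members passed the test. Of 20 tested genes of fatty acid synthesis 19 were lower in KOAL, with a median log2 difference of -0.85 and 0 called, 2 having an unadjusted p under 0.05. Fasn, fatty acid synthase, had 1440.4 (0 to 5483) in KOAL and 3904 (0 to 15858) in WTDR, intervals that overlap almost whole. Scd1, the stearoyl-CoA desaturase, had 4832 against 7809, and Thrsp, a lipogenic regulator, 523 against 858. The 2 genes past the test when the SD was divided by the square root of the library number were Acly (83.1 against 748) and Acss2 (39.9 against 229), which both make cytosolic acetyl-CoA. WTAL had lower values than KOAL for these genes (429 for Fasn, 38.4 for Acly and 15.9 for Acss2), and Elovl6, a fatty acid elongase, showed the widest span, with 3.44 in WTAL, 58.9 in KOAL, 126 in WTDR and 160.4 in KODR. Acly, Acss2 and Elovl6 were picked out after their values were seen.

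Of 18 tested genes of triglyceride synthesis 12 were lower and Agpat2 alone was called, with a median of -0.50. Fabp4, the adipocyte fatty acid binding protein, had 6314 in KOAL and 9788 in WTDR, and Lpl, lipoprotein lipase, 897 and 1588. Of 22 lipid droplet and lipolysis genes 15 were lower, with a median of -0.37 and 0 called. Plin1, the perilipin that coats adipocyte droplets, had 495 against 1169, and Pnpla2, adipose triglyceride lipase, 1315 against 2593, whereas Cidec had 2033 against 1529. Sterol synthesis genes had a median of -0.98, with 18 of 24 lower and 0 called, 3 of them (Fdps, Sqle and Mvk) with an unadjusted p under 0.05. Pmvk, phosphomevalonate kinase, had 33.7 against 97.1.

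**Figure D3:**
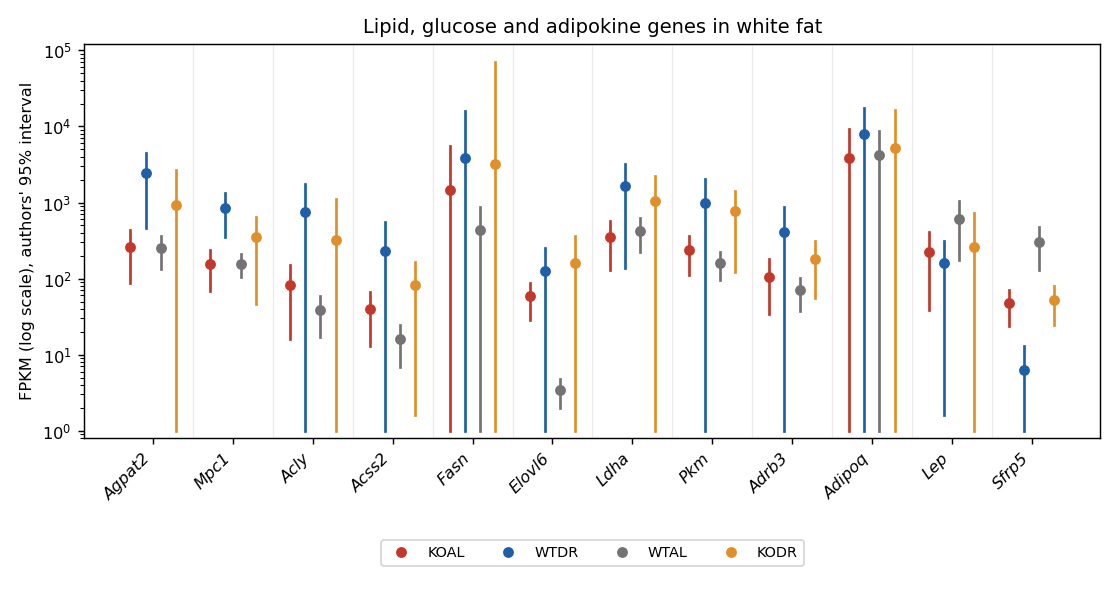
Authors' FPKM (points) and 95% intervals (bars) of 12 lipid, glucose and adipokine genes in the 4 WAT groups, on a log axis that cuts lower bounds at 1. WTDR is the highest point for 9 genes, and its bars reach the bottom of the axis for 8 of the 12. Agpat2 and Mpc1 are the only 2 of them that were called.

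Glucose and energy metabolism also had negative medians. Of 26 genes of glucose uptake and glycolysis 21 were lower in KOAL, with a median of -0.78 and 0 called, 4 having an unadjusted p under 0.05. Ldha, lactate dehydrogenase A, had 354 (128 to 580.2) in KOAL, 1656 (139 to 3174) in WTDR, 423 in WTAL and 1033 in KODR. Pkm, pyruvate kinase, had 236 (112 to 360.3) and 990.1 (0 to 2021), and Aldoa 916 and 1986. Pdk4, which blocks entry of pyruvate into the tricarboxylic acid cycle, leaned the other way with 86.3 against 19.2. The tricarboxylic acid cycle list had 15 of 18 lower (median -0.58) and the fatty acid oxidation list 17 of 22 (median -0.37), with 0 called in both and 0 at an unadjusted p under 0.05. All 48 tested nuclear subunits of the respiratory chain were lower in KOAL, and stayed lower than the median of all tested entries, yet 0 were called and 2 had an unadjusted p under 0.05. Their median was -0.84 and their range -1.71 to -0.05. Atp5b had 2190.0 in KOAL and 3156 in WTDR, Cox4i1 898 and 1319, and Cox7b 821 and 1403.

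All 8 mRNAs and ribosomal RNAs of the mitochondrial genome with an entry of their own were lower in KOAL, with a median of -1.61, and both ribosomal RNAs were called. Of 15 transfer RNAs with an entry of their own, 8 were tested and all 8 were lower, 1 of them (mt-Ty) called. The 7 that could not be tested were divided, with 5 listed at 0 in KOAL and 2 (mt-Te and mt-Tf, at 72.7 and 40.0 in KOAL) listed at 0 in WTDR. The large ribosomal RNA mt-Rnr2 (mitochondrial genome, 1094 to 2675) had 1489 (621 to 2357) in KOAL, 14210.5 (7216 to 21205) in WTDR, 1803 (665 to 2941) in WTAL and 3850.1 (0 to 19593) in KODR. The small one, mt-Rnr1 (70 to 1024), had 1116 (521 to 1711), 9116 (4072 to 14161), 1362 (701 to 2024) and 2988 (0 to 10293). The log2 differences were -3.25 ± 0.55 and -3.03 ± 0.55. Among the mRNAs, mt-Co1 had 12562 against 15451, mt-Co2 10042 against 21375 and mt-Cytb 11906 against 24068, none called. The 10 entries with the highest mean FPKM in the comparison were mitochondrial or near-copies of mitochondrial genes, apart from Yam1 (6981 against 34122), and 0 of them were called. Their log2 differences ran from -2.29 to -0.30. The share of FPKM in the highest entries, larger in WTDR, moved with these values, and its part in the other differences was not tested.

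Small RNAs made up most of the remaining lower calls. Box C/D small nucleolar RNAs guide methylation of ribosomal RNA, and Y RNAs bind the Ro60 protein. The 3 RNAs of these classes among the 12 largest lower differences are printed here from the GENCODE M21 transcripts on GRCm38, 5′ to 3′. In the snoRNAs capitals mark the C box letters near the 5′ end and the D box CTGA near the 3′ end. Rny3 has neither.
Snord71, chr8:109839295-109839379, plus strand, 85 bases: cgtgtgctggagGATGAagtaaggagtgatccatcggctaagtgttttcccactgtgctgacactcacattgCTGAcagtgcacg
Snord82, chr1:86356261-86356330, minus strand, 70 bases: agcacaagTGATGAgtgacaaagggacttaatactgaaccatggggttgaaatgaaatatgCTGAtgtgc
Rny3, chr6:47781624-47781725, plus strand, 102 bases: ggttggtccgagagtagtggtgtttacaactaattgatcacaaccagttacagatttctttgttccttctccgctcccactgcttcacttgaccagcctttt
Snord71 had an FPKM of 29.0 (7.18 to 50.7) in KOAL, 311 (221 to 400.3) in WTDR, 87.5 (66.6 to 108) in WTAL and 239.8 (0 to 1510.3) in KODR (log2 -3.42 ± 0.58). Snord82 had 315 (229.9 to 401), 1467 (1242 to 1692), 274 (0 to 2773) and 1229 (0 to 11266) in the same order, and Rny3 8.32 (6.07 to 10.6), 63.6 (57.0 to 70.3), 35.3 (0 to 127) and 85.4 (0 to 251). The intervals of KOAL and WTDR did not overlap for any of the 3, while WTAL or KODR had a lower bound of 0 in each. The 5.8S ribosomal RNA entry n-R5-8s1 had 557 (172 to 942) in KOAL and 5570.3 (346 to 10795) in WTDR. Snord13, Snord87, Gm25381, Gm23935 and mt-Ty were also called lower, with log2 differences of -1.60, -1.05, -1.94, -1.68 and -0.35. The libraries were made from polyadenylated RNA, and most of these RNAs carry no poly(A) tail in their mature form. With the test limited to protein-coding entries, 72 were called, 66 higher and 6 lower.

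A pair of other entries had intervals narrower than 1% of their value and very small differences. These were Hist1h4i (1.65 against 1.61) and Gm20721 (62.5 against 49.6). With each SD held to at least 20% of the FPKM, 74 entries were called, 57 higher and 17 lower.

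Hormone and stress genes gave a few separate calls. Dio2, the deiodinase that activates thyroid hormone, had 3.94 (1.74 to 6.15) in KOAL, 0.136 (0 to 0.338) in WTDR, 0.115 in WTAL and 0.432 in KODR. It was the only called member among 11 tested brown and beige fat genes, whose median was -0.26. Dio2 had met the FPKM minimum in KOAL alone, which fixed its direction. Ucp1, which uncouples respiration for heat, had 9.87 against 11.8, and Cidea 34.1 against 62.5. Fkbp5, a co-chaperone of the glucocorticoid receptor that glucocorticoids induce, had 9.83 (7.41 to 12.3) in KOAL and 2.66 (1.53 to 3.78) in WTDR, 6.46 in WTAL and 18.0 in KODR (log2 1.89 ± 0.35). WTDR was thus the lowest group. It was the 1 called gene of 29 on the p53 and stress list, of which 22 were higher with a median of 0.49. Mt2, a metallothionein, had 203 against 25.3 and was not called (log2 3.00 ± 0.89), with 431 in WTAL. Hspa1b, an inducible HSP70, had 39.3 (27.1 to 51.5) in KOAL and 4.68 (0 to 9.86) in WTDR, 9.09 in WTAL and 12.0 in KODR. It was the 1 called gene of 22 heat shock proteins and chaperones, whose median was -0.08. Hsp90ab1, a constitutive chaperone, had 437 against 522.

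Insulin pathway genes other than Irs1 showed no called difference. Of 43 tested members 27 were higher and 16 lower, with a median of 0.16, close to that of the whole table, and 0 had an unadjusted p under 0.05. After the table's median was taken off, 22 were higher and 21 lower. Irs2, the other main substrate, had 22.4 in KOAL and 13.3 in WTDR, Insr 8.84 and 8.35, and Akt2 59.1 and 86.8, picked out after their values were seen. Igf1 had 110.5 against 273, with 113 in WTAL and 115 in KODR, so WTDR alone was high, at a log2 difference of -1.30 ± 1.21. The IGF list as a whole had 6 of 13 higher, 0 called and a median of -0.22. Clock genes had 14 of 22 lower, 0 called and a median of -0.35. Dbp, a clock output gene, had 20.5 in KOAL, 101 in WTDR, 14.1 in WTAL and 81.6 in KODR, high in both restricted groups.

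Adipocyte and adipokine transcripts were abundant in both groups, as the tissue label implies. Adipoq, adiponectin, had 3809 (0 to 9331) in KOAL and 7999 (0 to 17452) in WTDR. Of 13 adipocyte markers 12 were lower in KOAL, with a median of -1.10, 0 called and a summed FPKM of 25503 against 52536 (39092 in WTAL and 31680.0 in KODR). Of 19 adipokines 11 were higher and 8 lower, with 0 called and a median of 0.43. Lep, leptin, had 222 (39.1 to 405) against 158 (1.62 to 314), and was 616 in WTAL and 260.3 in KODR, so KOAL and WTDR lay nearer to each other than either to WTAL. Retn, resistin, had 311 against 945, and Cfd, adipsin, 2865 against 6207. Among 14 markers of fat expansion 10 were higher, with 0 called and a median of 0.10. Sfrp5, a secreted Wnt inhibitor that rises with fat mass, was 47.7 (23.5 to 71.8) in KOAL, 6.26 (0 to 13.1) in WTDR, 304 (131 to 477) in WTAL and 52.1 (24.5 to 79.7) in KODR (log2 2.93 ± 0.86, not called), and was picked out after its values were seen.

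Marker lists of other tissues and cell types held 2 called genes, Notch3 and H2-DMb2, beside those described above. All 30 tested skeletal muscle markers were higher in KOAL, 29 of them still after the table's median was taken off, with a median of 1.89 and 0 called. The FPKM minimum had been met in KOAL alone by 10 of the 30, and the median of the 20 others was 1.51. Their summed FPKM was 1719 in KOAL, 590.4 in WTDR, 569 in WTAL and 1006 in KODR. Mylpf, a fast muscle myosin light chain, had 308, 53.1, 10.1 and 86.3. Leaving out 272 muscle-rich entries gave 95 calls, 77 higher and 18 lower. Smooth muscle and pericyte markers had 13 of 15 higher and a median of 1.07. Notch3, a pericyte receptor, was their only called gene, at 4.85 (3.67 to 6.03) against 2.56 (1.98 to 3.13). Macrophage markers had 22 of 28 higher (median 0.53), and MHC class II genes 9 of 9 higher (median 0.39, and 8 of 9 after the table's median was taken off), with H2-DMb2, a peptide-loading chaperone subunit, called at 5.29 (3.43 to 7.16) against 1.92 (1.23 to 2.60). Collagens (14 of 19 higher, median 0.48), matrix proteins (31 of 38, 0.65), endothelium (11 of 15, 0.40), fibroblasts (12 of 16, 0.36), peripheral nerve (5 of 9, 0.50), immediate early genes (19 of 21, 0.52) and liver genes (13 of 15, 0.70) had positive medians and 0 called. Of the 9 nerve genes, however, 2 had met the FPKM minimum in KOAL alone. Among the 7 others 3 were higher, with a median of -0.05. Acute phase genes had 11 of 20 higher and a median of 0.11. Red blood cell genes were lower in 6 of 6 (median -1.52, 0 called), with Hba-a1 at 1339 against 4408 and 8023 in KODR. Only 2 of 15 skin genes were tested. Across the 36 lists 13 of 656 tested genes were called (1.98%), 10 higher and 3 lower, beside 0.642% of all tested entries. Of the 656, 46 met the FPKM minimum in KOAL alone and 7 in WTDR alone. The epithelial list gave 5 of these 13. The part that cell or tissue make-up has in the metabolic differences was not tested.

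**Figure D4:**
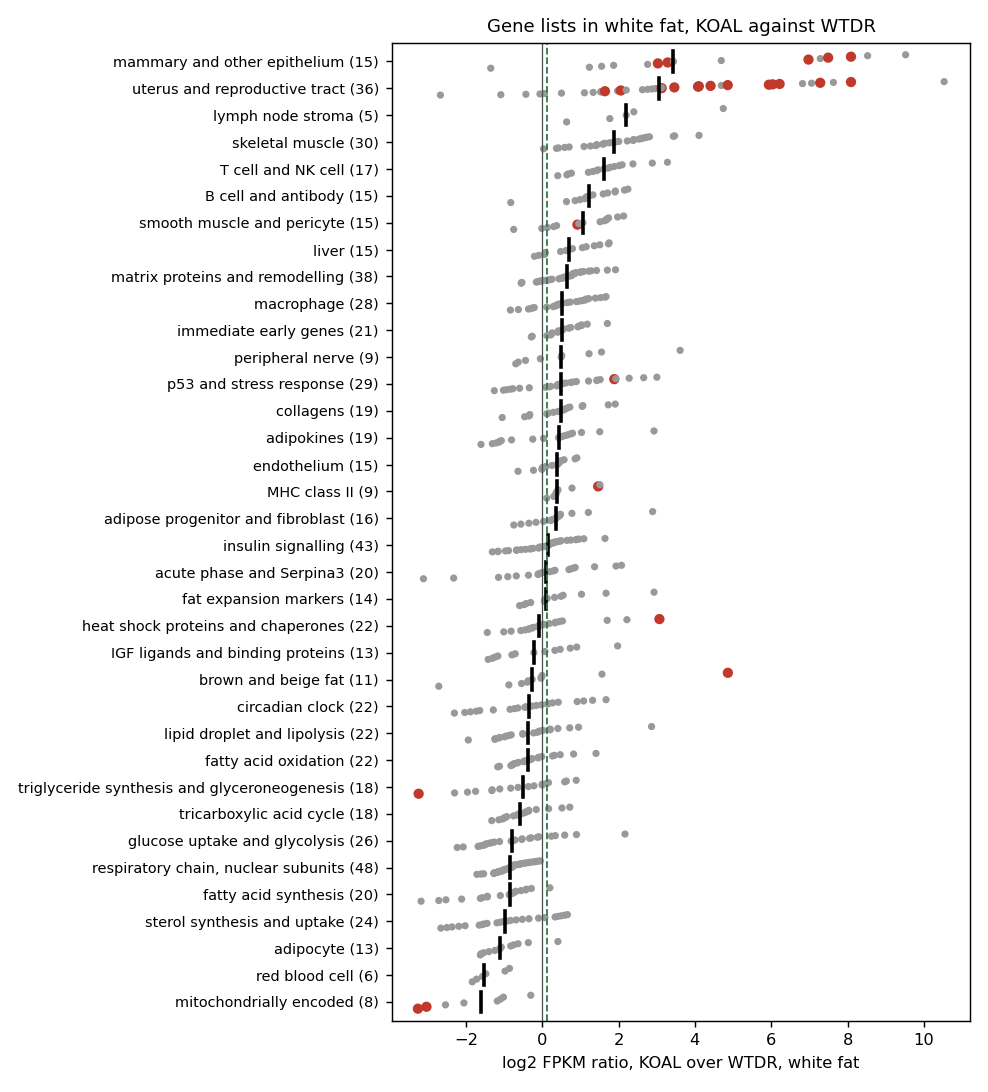
Log2 FPKM ratio of KOAL over WTDR (x axis) for every tested member of each list with at least 5 tested (number in brackets), with called members in red, other members in grey and the list median as a black bar. The dashed green line is the median of all tested entries, 0.14. Epithelial and reproductive tract markers lie furthest to the right (medians 3.44 and 3.05, the second list drawn up after the values were seen) and mitochondrially encoded genes furthest to the left (-1.61).

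The 2 remaining WAT groups placed the called entries as follows. Of the 79 entries higher in KOAL, KODR lay between KOAL and WTDR for 65 and WTAL for 39. Of the 19 lower entries, KODR lay between for 14 and WTAL for 12, and WTAL was on the KOAL side of the geometric middle for 16. The 16 include Snord87 and mt-Ty, for which WTAL was listed at 0, below both KOAL and WTDR. For 51 of the 79 higher entries WTAL was on the WTDR side of the middle. The entries were selected by their KOAL and WTDR values, and the same counts over all tested entries were not taken, so these counts describe and test nothing. WTAL and KODR share no mice with KOAL or WTDR by their labels, and no test was run on them.

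The same contrast was taken in the other 3 tissues to see which differences were particular to fat. With the same test, 267 of 14137 entries (1.89%) were called in skeletal muscle, 122 of 13703 (0.89%) in liver and 88 of 15255 (0.577%) in brain. A test of the difference between tissues (the log2 difference in WAT less that in the other tissue) called 87 entries (0.661%) against muscle, 40 (0.316%) against liver and 22 (0.17%) against brain. The genes given next were named for their difference in WAT, and that value enters this test, so their results describe and test nothing. Cldn3 differed from all 3 tissues, by 8.82 ± 1.36, 6.35 ± 1.17 and 6.32 ± 1.51 on the log2 scale. Rnf128 did so too, by 7.57 ± 1.68, 7.44 ± 1.67 and 6.82 ± 1.70. Agpat2 differed from muscle by -4.05 ± 1.10 and from liver by -3.90 ± 0.93. The mitochondrial ribosomal RNAs had the opposite sign in liver without being called there, mt-Rnr2 at 1.66 on the log2 scale. For mt-Rnr2 the difference of WAT less liver was called, at -4.92 ± 1.09. Neither of these RNAs was called for WAT less muscle or WAT less brain.

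Of the 98 entries called in WAT, 17 were also called in muscle, 11 in the same direction and 6 in the opposite one. In liver there were 5 and 4, and in brain 0 and 2. Over all entries tested, 1.89% were called in muscle, 0.89% in liver and 0.577% in brain. Many of the 98 were too low to be tested in the other tissues, Epcam, Hsd11b2 and Plekhs1 in any of them. Entries outside these counts can therefore not be read as particular to fat. Hspa1b had a log2 difference of 3.07 in WAT, 3.22 in muscle and 1.44 in liver, and was called in each. Fkbp5 had 1.89 in WAT and 1.89 in muscle. The others that ran the same way in muscle were Hoxd9 (1.64 in WAT and 0.73 in muscle), Sik1 (1.51 and 0.98), Ltf (8.09 and 5.83), Igkv3-2 (4.42 and 4.55), Ighg1 (5.43 and 3.90), Ighg3, Ighv2-9-1, Lpar6 and Ptp4a3. Opposite signs were largest for n-R5-8s1, at -3.32 in WAT, 3.55 in muscle and 3.77 in liver. Rny3 had -2.93 in WAT and 2.15 in liver, and Snord82 -2.22 in WAT, 1.82 in liver and 2.41 in brain. Gm23935 was lower in WAT and higher in liver (log2 0.32). In muscle Uba3, Atg12, Gm14287, Hist1h4i and Gm20721 were lower, by log2 differences of -0.55, -0.57, -1.03, -0.73 and -0.12, against 0.38, 0.66, 3.19, 0.04 and 0.33 in WAT, and Gm20721 was lower in brain too (-0.26). Apart from Hspa1b, Fkbp5, Ltf, n-R5-8s1, Rny3, Snord82 and Ighg1, these genes were picked out after their values were seen.

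**Figure D5:**
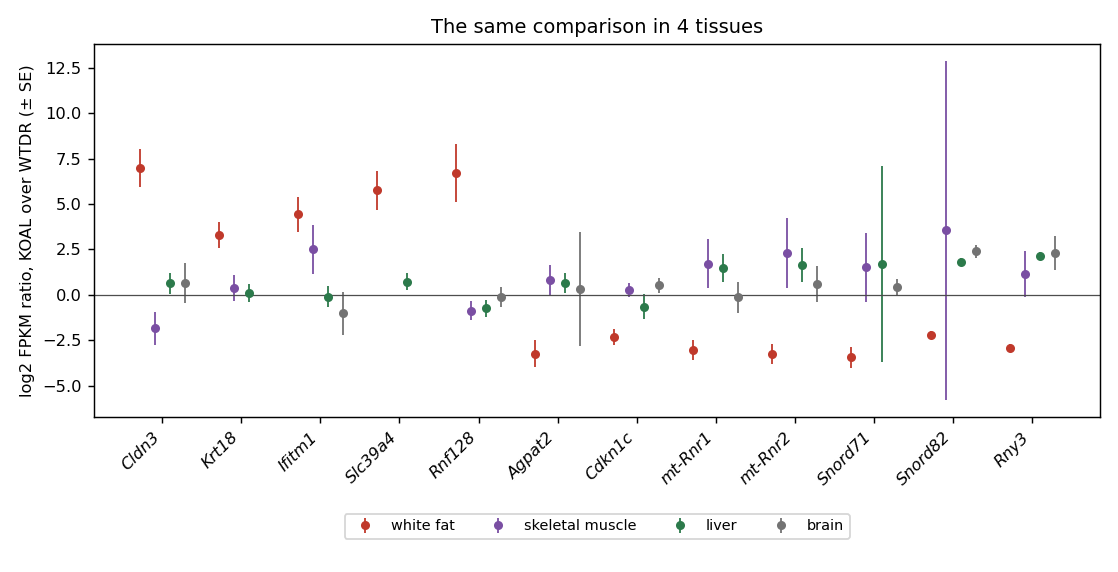
Log2 FPKM ratio of KOAL over WTDR (y axis) with its SE for 12 named genes in white fat, skeletal muscle, liver and brain. Points are missing where an entry was not tested. The WAT points lie above those of the tissues shown for Cldn3, Krt18, Ifitm1, Slc39a4 and Rnf128 and below them for the 7 others, and the SE of Snord82 in muscle spans most of the axis.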

How the data were processed

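RNA of 4 tissues from female mice was sequenced on an Ion Proton instrument after poly(A) selection, giving 43 libraries in 16 groups per the labels, of which 5 WAT libraries (3 KOAL, 2 WTDR) were compared here. The authors trimmed reads (cutadapt 1.5 is among the tools in the submitters' processing notes), aligned them to GRCm38 and ran Cuffdiff 2.2.1, and deposited its table of FPKM per gene entry and group with 95% confidence bounds. Values per library and depth were not used here, so precision is that of the bounds, and no exact test over mice could be run. For that reason calls are given without single p-values. Some of the 42349 entries, 873 in all, join overlapping genes.

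The SD of each group was taken as the distance from the FPKM to the upper bound divided by 2. The difference is log2(KOAL/WTDR) with no pseudocount, its SE follows from both SDs, and the ratio of the 2 was referred to the normal distribution on both sides (Wald test), with p-values adjusted by Benjamini and Hochberg's method to an FDR of 10%, for entries above 0 in both groups and at least 1 in one (Python 3.11.15, scipy 1.17.1, statsmodels 0.14.6). The test was checked on simulated data. It kept to its error rate when errors were log-normal, an outcome fixed in advance. The simulated errors were drawn with the very SD that the test was given, whereas the real SDs are estimates from few libraries. With gamma distributed errors of the same relative SD it did not keep to that rate. Simulated data with no true change then gave more calls than the real data. The calls thus hold only as far as errors are log-normal and the SDs are right. Other tissues were tested in the same way, and their differences from WAT by the difference of the log2 differences.

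Genes named are Irs1, the 12 called entries with the largest difference per direction above 1 FPKM in both groups, the 4 highest called entries under 1 in one group, up to 6 called members per list (where fewer than 2 were called, 3 with the highest mean FPKM), the 10 entries with the highest mean FPKM and 5 entries at 0 in one group. Others are marked, or stand as called entries or list members chosen after their values were seen. The members and lists were chosen with earlier results of these data known. Coordinates are from GENCODE M21 on GRCm38, which matched 92 of the 98 called entries. Alternatives were the SD divided by the root of the library number, an FDR of 5%, a t distribution, pseudocounts of 0.1 and 1, other FPKM minimums, centring, a 2-fold minimum, intervals that do not overlap, and leaving out joined or muscle-rich entries. A minimum SD of 20% and protein-coding entries only were added after the data were seen.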

Additional observations from a re-analysis of the deposited data

Results flagged for a closer look

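For 33 of the 136 members named in the text the difference between KOAL and WTDR in WAT was unlike that in at least 1 other tissue, by a Wald test of the difference between the tissues with adjustment over all entries tested. Over all entries tested, 0.661% differed against muscle, 0.316% against liver and 0.17% against brain. Many of the 136 were named for a large difference in WAT, and that value enters this test, so their count describes and tests nothing. The values are log2 differences in WAT less those in the other tissue. Against skeletal muscle these were 9.51 for Rpl19-ps4, 8.82 for Cldn3, 7.57 for Rnf128, 4.22 for Gm14287, 2.48 for Hoxa10, 1.23 for Atg12, 0.932 for Uba3, 0.769 for Hist1h4i, 0.455 for Gm20721, -1.35 for Snord13, -2.42 for Gm10053, -2.57 for Cdkn1c, -3.16 for the entry known only by a clone name, -3.66 for Plin1, -4.05 for Agpat2, -6.13 for Cidea, -6.88 for n-R5-8s1 and -8.44 for Ucp1. Against liver they were 7.44 for Rnf128, 6.35 for Cldn3, 5.08 for Il17rb, 5.01 for Slc39a4, 4.53 for Ifitm1, 3.43 for Hand2, 3.18 for Krt18, 1.93 for Sik1, -0.135 for Gm20721, -1.60 for Hist1h4i, -2.002 for Gm23935, -2.90 for Snord13, -3.29 for the clone entry, -3.39 for Gm10053, -3.90 for Agpat2, -4.04 for Snord82, -4.50 for mt-Rnr1, -4.92 for mt-Rnr2, -5.08 for Rny3 and -7.10 for n-R5-8s1. Against brain they were 6.82 for Rnf128, 6.74 for Rxfp1, 6.32 for Cldn3, 5.33 for Dio2, 0.589 for Gm20721, -2.84 for Cdkn1c, -3.15 for Map6, -3.22 for the clone entry, -3.84 for Snord71, -4.22 for n-R5-8s1, -4.63 for Snord82 and -5.25 for Rny3. Cldn3, Rnf128, n-R5-8s1, Gm20721 and the clone entry differed from all 3 tissues. Gm20721 and Hist1h4i passed with small differences because their intervals were very narrow. The tissues may come from the same mice, which the test does not take into account.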

How the results depend on the processing

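The 98 calls (79 higher, 19 lower) became 530 (357 and 173) with the SD divided by the root of the library number, 414 (346 and 68) with a pseudocount of 0.1, 400 (337 and 63) with a pseudocount of 1, 210 (190 and 20) by intervals that do not overlap, 58 (39 and 19) where both groups had to reach an FPKM of 1, and 1 (1 and 0) against a t distribution. All 98 were among the 414 and the 400, and also among the 530, by construction, since dividing the SD narrows every SE. With protein-coding entries only, 6 were lower, by construction. The other alternatives gave 74 to 98. Called list genes were 52 in place of 13 with the root of the library number, and the differences between tissues 497, 437 and 414 in place of 87, 40 and 22. Of 36 named genes followed, none changed direction under any alternative. Only centring and the pseudocounts alter a log2 difference at all, so under the other alternatives the direction was fixed. Of 517 values 465 stayed on the same side of the threshold, 36 of the other 52 being those against the t distribution. No paired analysis was possible because the table holds 1 value per group and no value per replicate, and for the same reason leaving out a replicate could not be run. Depth is unknown and limits could not be set from it.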
